A study of Mus musculus with 4 samples.

Results

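Long loops of the T-cell receptor β chain (TRB) were taken as in-frame CDR3 sequences of 17 to 25 residues, counted from the conserved cysteine of the V segment to the conserved phenylalanine of the J segment and free of stop codons. There were 6888 such clonotypes among 238470 in-frame clonotypes, with 1348 and 2069 in wild-type libraries 1 and 2 and 1396 and 2075 in Vsig4-deficient libraries 1 and 2. Clonotypes were told apart by CDR3 nucleotide sequence, V segment and J segment. The 170673 in-frame clonotypes of 13 to 15 residues, which made up 71.6% ± 0.197 (SD, n = 4) of in-frame clonotypes, served as the comparison.

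The cells were DAPI-CD45+CD3+CD8+ T cells, sorted on day 14 after injection from livers bearing MC38 metastases (MC38 is a mouse colon adenocarcinoma line; the labels speak of melanoma). Wild-type mice (2 libraries) were compared with Vsig4-/- mice (2 libraries), which lack a receptor that Kupffer cells, the macrophages of the liver, use to bind complement. Neither Vsig4 nor CD8 is read by the assay, so genotype and cell type are those of the labels. Mouse strain, age and sex are not given in the labels, nor whether each library stands for its own animal or for pooled animals. The p-values therefore reflect at most the spread among these libraries, which may be technical. Those from edgeR, a count model, also rest on the numbers of clonotypes or residues. Its dispersion is drawn in part from all segments or residues together. Very small values there come with many clonotypes, not with many libraries. Total RNA was read out by bulk TCR sequencing, which gave 901567 to 1269480 counts per library; whether a count is a read or a molecule is not known.

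CDR3 is the loop that meets the peptide in the groove of an MHC molecule. In the β chain it is not encoded whole in the genome: a V, a D and a J segment are cut and joined in the thymus, exonucleases trim their ends, and terminal transferase adds bases that no segment encodes. Its length is therefore the sum of the V, D and J bases that were kept and the bases that were inserted, and rearrangements that fall out of frame make no receptor of their own.

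The germline D segments are shown first because the long loops differed most in this part. Mouse TRB has a pair of them. TRBD1 lies before the J1 cluster of J segments (chr6:41533201-41533212 in the RefSeq annotation of GRCm38.p6). TRBD2 lies between the J1 and J2 clusters (chr6:41542163-41542176). The sequences were read from untrimmed rows of the deposited tables.
TRBD1: gggacagggggc
TRBD2: gggactgggggggc

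The largest long clonotype of each library shows how these loops are built, with the bases assigned to the D segment in capitals. V bases lie at the left end and J bases at the right end, and inserted bases lie between them and the D part in lower case.
Wild-type 1, TRBV13-2 with TRBJ2-4: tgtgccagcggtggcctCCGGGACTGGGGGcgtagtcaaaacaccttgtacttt
Wild-type 2, TRBV13-3 with TRBJ2-1: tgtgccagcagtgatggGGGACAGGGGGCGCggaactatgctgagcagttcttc
Vsig4-deficient 1, TRBV1 with TRBJ2-1: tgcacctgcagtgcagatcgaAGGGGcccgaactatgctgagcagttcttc
Vsig4-deficient 2, TRBV13-2 with TRBJ2-5: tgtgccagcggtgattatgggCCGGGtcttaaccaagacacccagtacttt

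Both wild-type clonotypes have 18 residues and long assigned D parts of 13 and 14 bases, with 6 and 3 inserted bases. Both Vsig4-deficient clonotypes have 17 residues and only 5 D bases, with 6 and 8 inserted bases. An assigned D part can run past the germline ends, as the last GC of the wild-type 2 sequence does. The D part was longer than the whole germline segment in 16.1% ± 0.195 (SD, n = 4) of long clonotypes with a D segment and in 2.56% ± 0.0303 (SD, n = 4) of those of 13 to 15 residues. D parts that run past one end but are shortened at the other are not in this count.

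Most long loops stood just above the length limit. Loops of 17 residues made up 82.3% of them (5671 clonotypes) and loops of 18 residues 15.1% (1037). There were 145 loops of 19, 29 of 20, 4 of 21 and 2 of 23 residues, and none of 24 or 25. Just outside the limit, loops of 16 residues numbered 22782, or 9.54% of in-frame clonotypes, against 2.38% for 17 residues. These neighbours carried 3.74 and 4.40 inserted bases, and 9.44 and 10.7 D bases where a D segment was assigned. Only 6 in-frame rows exceeded 25 residues, none with more than 4 counts.

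**Figure D1:**
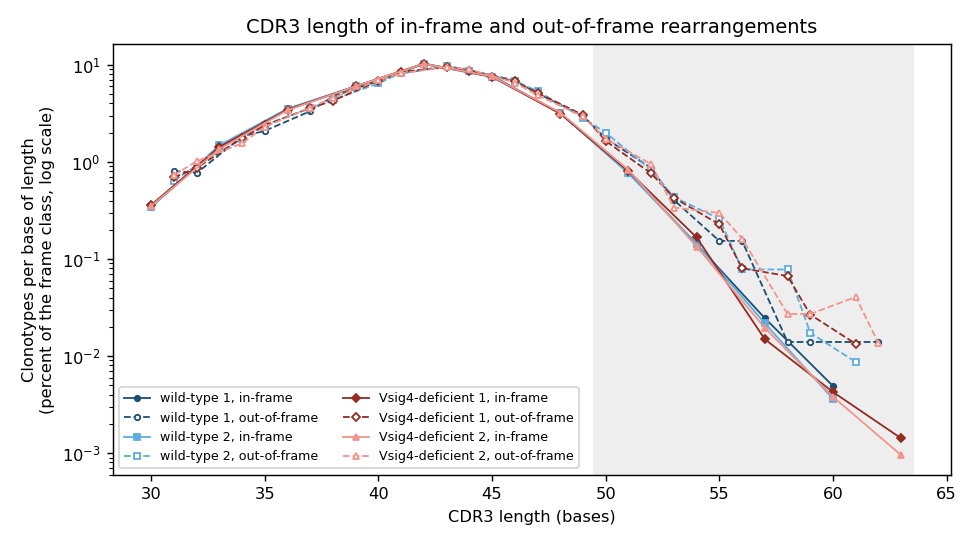
CDR3 length in bases (x axis) against clonotypes per base of length (y axis, log scale), as a percent of all in-frame rows (solid lines) or all out-of-frame rows (dashed lines) of each library; in-frame values were divided by 3 and out-of-frame values multiplied by 2/3, since frames hold 1 and 2 of every 3 lengths. The shaded range of long loops starts at 50 bases; from there to 56 bases the out-of-frame line of each library lies above its in-frame line, and beyond that the points rest on few rows.

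Long loops were rarer among in-frame than among out-of-frame rearrangements. In-frame clonotypes with 17 to 25 residues made up 2.83% and 2.80% of in-frame clonotypes in wild-type 1 and 2 and 2.97% and 2.96% in Vsig4-deficient 1 and 2. Rows out of frame, with lengths of 50 to 76 bases around the same range, made up 5.06% and 5.59% of out-of-frame rows in wild-type libraries 1 and 2, and 4.91% and 5.40% in Vsig4-deficient libraries 1 and 2 (1183 of 22386 rows in all). The in-frame share was lower in 4 of 4 libraries, by 2.35 percentage points on average, and the ratio of the shares was 0.554 ± 0.0425 (SD, n = 4). The two-sided exact sign-flip test gave p = 0.12, the smallest that 4 libraries allow.

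This ratio turned on where the window was set, because length falls steeply here. Rows of 50 bases held 2.67% ± 0.232 (SD, n = 4) of out-of-frame rows. With a window of 51 to 75 bases, which leaves them out, the out-of-frame share was 2.57% ± 0.169 (SD, n = 4) and the ratio 1.13 ± 0.0722 (SD, n = 4), the opposite direction. When the out-of-frame share at each in-frame length was taken as the geometric mean of the neighbouring lengths, a choice made after seeing the data, the share was 4.95% ± 0.319 (SD, n = 4) and the ratio 0.587 ± 0.0442 (SD, n = 4). Among rows in frame of 51 to 75 bases, those with a stop codon made up 0.809%, 1.43%, 1.48% and 0.288%, against 0.499%, 0.528%, 0.432% and 0.352% at 39 to 45 bases, in the order wild-type 1 and 2, Vsig4-deficient 1 and 2.

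Of the 4 parts of the loop, the D part gave the largest share of the extra length. Long loops had 51.6 bases on average and the comparison loops 42.2, a difference of 9.43 ± 0.0300 bases (SD, n = 4). D bases accounted for 45.7% of it, J bases for 26.1%, inserted bases for 15.2% and V bases for 12.9%, with ranges over the 4 libraries of 45.2% to 46.2%, 25.5% to 27.0%, 15.2% to 15.3% and 12.4% to 13.2%. These parts add up to the length that chose the loops, so they are given as a description with no test.

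In long loops the D part held 10.7 ± 0.0743 bases and in the comparison 6.36 ± 0.0248 (SD, n = 4, 0 where no D segment was assigned). A D segment was assigned in 97.8% of long loops and in 79.4% of the others. At least 12 D bases, the length of TRBD1, were assigned in 42.2% ± 0.837 of long loops with a D segment and in 10.03% ± 0.223 of the comparison (SD, n = 4). Such D parts can include bases past the germline ends. TRBD2, the longer of the pair, was the assigned segment in 71.3%, 74.2%, 72.4% and 71.8% of long loops without a tied D hit, against 43.6% to 46.3% in the comparison. TRBJ1 segments lie before TRBD2 and can hardly join it, so the share was also taken within the J2 cluster, where it was 85.6% ± 0.786 in long loops and 59.96% ± 1.304 in the comparison (SD, n = 4). Within the J1 cluster it was 4.02% ± 0.808 and 8.14% ± 0.445 (SD, n = 4).

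J and V ends were kept more fully. The J end was untrimmed in 53.1% ± 1.34 of long loops and 27.3% ± 0.297 of the comparison, and the V end in 43.0% ± 0.382 and 24.9% ± 0.254 (SD, n = 4). Inserted bases numbered 4.65 ± 0.0109 per long loop and 3.21 ± 0.0147 per comparison loop (SD, n = 4), split nearly evenly between the V to D side (2.21 in long loops) and the D to J side (2.32). No inserted base was found in 4.53% of long loops and 12.2% of the others, and 10 or more in 6.55% and 1.67%.

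**Figure D2:**
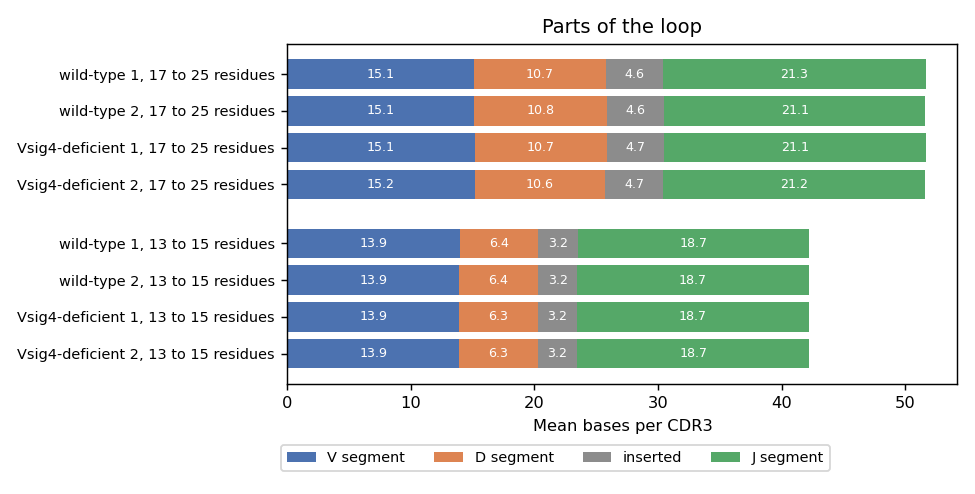
Mean bases per CDR3 (x axis) contributed by the V segment, the D segment, inserted bases and the J segment, stacked for each library, with loops of 17 to 25 residues above and loops of 13 to 15 residues below. The D part is 10.6 to 10.8 bases in long loops and 6.34 to 6.39 in the comparison.

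Out-of-frame rows of 50 to 76 bases were built with more inserted and fewer D bases. They carried 5.53 ± 0.144 inserted bases and 10.02 ± 0.150 D bases (SD, n = 4), against 4.65 and 10.7 in the in-frame long loops. TRBD2 was assigned in 62.9% ± 1.28 of the untied out-of-frame rows (SD, n = 4) against 72.4% in frame. The library ranges of these 3 measures did not overlap between the frames. Against out-of-frame rows of 38 to 46 bases, D bases gave 38.8% and inserted bases 21.9% of their extra length. The excess of inserted bases was not limited to long rows. Out-of-frame rows of 38 to 46 bases carried 3.45 to 3.51, against 3.19 to 3.22 in frame at 13 to 15 residues. D bases (6.38 and 6.36) and the TRBD2 share (44.6% and 44.9%) were alike at those lengths.

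A few long loops held pieces of both D segments, and their sequences are shown because letters of both segments stand in one junction. The motif GACAGG of TRBD1 followed by GACTGG of TRBD2, searched on the coding strand between the V and the J part, was found in 10 of 6888 long clonotypes (3, 1, 2 and 4 per library). Alone or together, the motifs GACAGG and GACTGG occurred there in 16.5% and 45.5% of long loops and in 15.4% and 13.1% of comparison loops. The reverse order was found in 0 long clonotypes. All 10 used a TRBJ2 segment. The TRBD1-first order occurred in 1 of 170673 comparison clonotypes, where the reverse order also occurred once, in 4 of 22782 clonotypes of 16 residues and in 0 of 1183 out-of-frame rows of 50 to 76 bases. Such a match describes the letters only, and room for both motifs grows with the length of the junction. A selection of 5 is printed with the motifs in capitals.
Wild-type 1, TRBV3 with TRBJ2-7, 29 counts: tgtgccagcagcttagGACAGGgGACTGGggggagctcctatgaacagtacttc
Wild-type 2, TRBV13-2 with TRBJ2-4, 1 count: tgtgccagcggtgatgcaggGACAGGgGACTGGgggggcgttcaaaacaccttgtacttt
Vsig4-deficient 1, TRBV17 with TRBJ2-4, 7 counts: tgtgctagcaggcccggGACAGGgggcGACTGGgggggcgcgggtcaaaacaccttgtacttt
Vsig4-deficient 2, TRBV13-2 with TRBJ2-7, 54 counts: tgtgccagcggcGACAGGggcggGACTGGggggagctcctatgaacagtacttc
Vsig4-deficient 2, TRBV13-3 with TRBJ2-4, 10 counts: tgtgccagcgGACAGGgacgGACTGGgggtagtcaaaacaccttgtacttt

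J use separated the long loops sharply from the comparison. J bases are part of the length that chose the loops, so the calls and p-values on J use are not independent of that choice. By edgeR's quasi-likelihood test on clonotypes, with the library as a block and Benjamini-Hochberg adjustment, 11 of 12 TRBJ segments (91.7%) differed in share, 6 higher and 5 lower in long loops. With TMM normalization the split was 4 higher and 6 lower, and with DESeq2 and its size factors 5 and 5, and TMM moved the median log2 ratio from 0.0032 to -0.20. TRBJ2-2, TRBJ2-3 and TRBJ2-4 together held 49.0%, 47.3%, 46.9% and 42.4% of long clonotypes, against 21.3% to 21.7% of the comparison. The J1 cluster as a whole held 17.9% ± 1.15 of long and 33.2% ± 0.851 of comparison clonotypes (SD, n = 4).

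TRBJ2-2 held 13.6% and 11.9% of long clonotypes in wild-type libraries 1 and 2, and 12.1% and 12.5% in Vsig4-deficient libraries 1 and 2, against 5.34% ± 0.142 (SD, n = 4) of the comparison. Its log2 ratio was 1.22 ± 0.0575 (SE; edgeR adjusted p = 1.4e-21). This SE, like those below, was taken back from edgeR's F statistic and is not the spread of the single libraries. Their log2 ratios ran from 1.17 to 1.37. TRBJ2-4 (17.7% of long clonotypes, log2 ratio 1.07) and TRBJ2-3 (16.2%, log2 ratio 1.05) were also higher in 4 of 4 libraries. TRBJ1-6, the segment with the most germline CDR3 bases (25), had a log2 ratio of 0.50, and 0.39 with the call lost at 18 residues or more. TRBJ2-1, the most used with TRBJ2-4, had a log2 ratio of 0.25, and 0.052 with the call lost under TMM normalization. TRBJ2-5 held 13.9% of long clonotypes. Its log2 ratio of 0.12 (edgeR adjusted p = 0.017) was -0.078 with TMM normalization, and the call was lost with DESeq2 (log2 ratio 0.095), at 18 residues or more (0.0016) and without wild-type 2, Vsig4-deficient 1 or Vsig4-deficient 2 (log2 ratios of 0.105, 0.133 and 0.066).

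At the other end, TRBJ1-1 held 9.34% ± 0.352 of comparison clonotypes and 1.27% ± 0.342 of long ones (SD, n = 4), with 1.41%, 1.06%, 0.931% and 1.69% in the 4 libraries. Its log2 ratio was -2.85 ± 0.104 (SE; edgeR adjusted p = 5.8e-25). The log2 ratios of the single libraries spread more widely, from -3.39 to -2.43. TRBJ1-2 fell by 2.44 on the log2 scale and TRBJ2-7, the most used J segment of the comparison loops at 17.4%, by 2.08. These 3 are the shortest in the germline, with 20, 20 and 19 CDR3 bases. TRBJ1-5 (22 bases, log2 ratio -0.90) and TRBJ1-4 (23 bases, log2 ratio -0.25, and -0.17 with the call lost without wild-type 2) were lower as well, so germline length did not order the segments fully. Over the 12 TRBJ segments Pearson's r between germline CDR3 bases and the log2 ratio was 0.61 and Spearman's rho 0.53. The segments share the same libraries, and these values are descriptions. The out-of-frame rows, pooled over libraries, gave a log2 ratio of the same sign for 10 of 12 TRBJ segments.

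V use differed as well, and V bases too are part of the length that chose the loops. Of 23 TRBV segments tested, 17 (73.9%) differed by the same test, 6 higher and 11 lower in long loops. TMM, which moved the median log2 ratio from -0.15 to 0.028, and DESeq2 each called 8 higher and 10 lower. TRBV2 held 5.27% and 7.15% of long clonotypes in wild-type libraries 1 and 2, and 7.38% and 3.23% in Vsig4-deficient libraries 1 and 2, against 1.88% ± 0.375 (SD, n = 4) of the comparison. Its log2 ratio was 1.61 ± 0.106 (SE; edgeR adjusted p = 2.4e-09). In the single libraries the log2 ratio of TRBV2 ran from 1.28 to 1.86. Of all in-frame clonotypes with TRBV2, 8.19% ± 1.38 were long (SD, n = 4), against 2.89% over all segments. TRBV23 (log2 ratio 1.10), TRBV5 (1.09), TRBV1 (0.76) and TRBV16 (0.63) were also higher in 4 of 4 libraries. At 18 residues or more the log2 ratio of TRBV16 was 0.049 and its call was lost. TRBV2, TRBV23, TRBV5, TRBV1 and TRBV16 all carry 17 germline CDR3 bases.

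The same germline length occurred among the segments that long loops used least. TRBV29, also with 17 bases, held 6.48% ± 0.569 of comparison and 2.83% ± 0.317 of long clonotypes (SD, n = 4), and its log2 ratio was -1.20 ± 0.0893 (SE; edgeR adjusted p = 6.5e-09). TRBV14 fell by 1.07 and TRBV15 by 1.06 on the log2 scale, the latter with 21 long clonotypes in all and its call lost at 18 residues or more. TRBV20, with 14 germline bases, had 5 long clonotypes, none of them in Vsig4-deficient library 2, and a log2 ratio of -2.30. TRBV30, also with 14 bases, had 0 long clonotypes in all 4 libraries and 192 in the comparison. Its share was at least 2.58-fold lower in long loops, taking 3 clonotypes over the libraries as the limit that a count of 0 allows. Over 22 TRBV segments with a long clonotype tested, Pearson's r between germline CDR3 bases and the log2 ratio was 0.36, again as a description.

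The most used V segments of long loops were TRBV13-2 (17.1%, log2 ratio 0.48), TRBV1 (11.9%), TRBV3 (10.05%), TRBV13-1 (8.99%) and TRBV13-3 (6.96%, log2 ratio -0.37). TRBV3 and TRBV13-1 had log2 ratios of 0.033 and 0.0019 and did not pass the test, though TRBV3 passed with TMM normalization (log2 ratio 0.21). TRBV13-2 and TRBV13-3, members of one family, stood on different sides. Among out-of-frame rows, 15 of 18 TRBV segments with at least 10 such rows gave a log2 ratio of the same sign as in frame.

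TRBV13-2, TRBV29 and TRBV1, the segments that natural killer T cells use, together held 31.9% ± 2.40 of long and 25.8% ± 0.971 of comparison clonotypes (SD, n = 4), though TRBV29 alone was lower in long loops. The CD8+ gate removes most mouse natural killer T cells. TRBV13-2, TRBV13-3 and TRBV19, used by mucosal-associated invariant T cells, held 26.3% ± 1.23 and 25.5% ± 1.14 (SD, n = 4). Conventional CD8+ T cells use these segments too, and the β chain alone does not tell the cell types apart.

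When clonotypes were weighted by their counts, 1 TRBV and 4 TRBJ segments were called, all lower in long loops: TRBV30, TRBJ1-1, TRBJ1-2, TRBJ1-5 and TRBJ2-7.

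**Figure D3:**
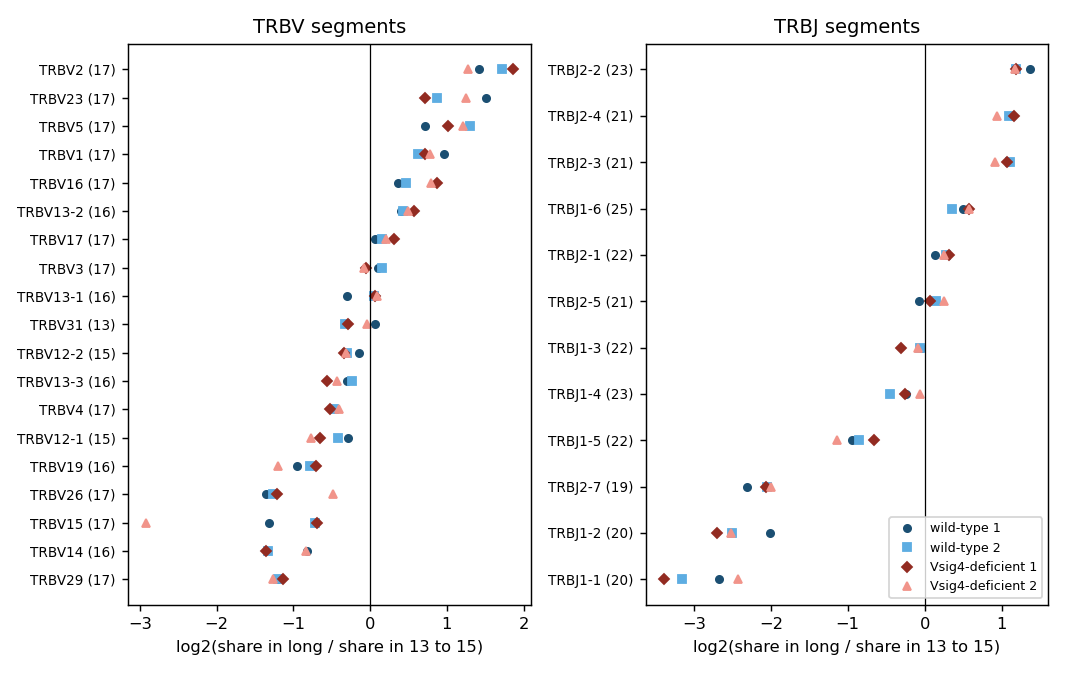
Log2 ratio of a segment's share among long clonotypes to its share among clonotypes of 13 to 15 residues (x axis) for TRBV segments (left) and TRBJ segments (right) with at least 10 long clonotypes, 1 point per library, with the germline CDR3 bases of each segment in brackets. TRBJ2-2, TRBJ2-4 and TRBJ2-3 lie near 1 and TRBJ2-7, TRBJ1-2 and TRBJ1-1 at or below -1.99 in all libraries; TRBV15 is spread most, from -2.92 to -0.69.

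Junction residues were those whose codon has its middle base between the end of the V part and the start of the J part. There were 5.11 ± 0.0324 per long loop and 3.21 ± 0.00315 per comparison loop (SD, n = 4). These residues are read from the D and inserted bases, which are parts of the length that chose the loops. The calls and p-values on residues are therefore not independent of that choice either. Of 20 residues, 14 (70.0%) differed in their share of the junction by edgeR's quasi-likelihood test, 4 higher and 10 lower in long loops. The median log2 ratio over all residues was -0.13. It was -0.0019 with TMM normalization and 0.015 with DESeq2, and both of these called 6 higher and 6 lower. Aspartate and arginine, called lower, had log2 ratios of 0.021 and 0.0089 with DESeq2 and did not pass.

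Leucine had the highest log2 ratio under this definition of the junction. It made up 6.84% and 6.94% of junction residues of long loops in wild-type libraries 1 and 2, and 7.16% and 7.34% in Vsig4-deficient libraries 1 and 2, against 5.03% ± 0.0407 (SD, n = 4) in the comparison. Its log2 ratio was 0.50 (edgeR adjusted p = 1.4e-07). Alanine had a log2 ratio of 0.35, tryptophan of 0.30 and glycine of 0.12, and all were higher in 4 of 4 libraries. Glycine, the smallest residue, took 40.1%, 40.4%, 40.4% and 39.9% of junction residues in long loops and 37.1% ± 0.239 (SD, n = 4) in the comparison. At least a pair of adjacent glycines stood in 59.4% ± 1.40 of long loops and in 25.9% ± 0.684 of the others (SD, n = 4), a count per loop that grows with the number of junction residues.

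Glutamine had the lowest log2 ratio under this definition, as its share fell from 4.62% ± 0.119 of junction residues in the comparison to 2.18% ± 0.195 in long loops (SD, n = 4). The 4 libraries gave 1.95%, 2.19%, 2.13% and 2.43%, and the log2 ratio was -1.07 (edgeR adjusted p = 2.1e-08). Asparagine (log2 ratio -0.57), histidine (-0.51), isoleucine (-0.42) and valine (-0.36) followed, each lower in 4 of 4 libraries. The calls of histidine and isoleucine were lost at 18 residues or more (log2 ratios of -0.29 and -0.33), and that of histidine also with TMM (-0.38). Of the most frequent residues, arginine (9.44% in long loops) had a log2 ratio of -0.14 and threonine (6.58%) of -0.24. The call of threonine was lost with DESeq2 (log2 ratio -0.093), and that of arginine with TMM (-0.011), at 18 residues or more (-0.082) and in the loop without its first 4 and last 4 residues (-0.037). Proline (5.999%) had a log2 ratio of 0.051 and did not pass the test, but it passed as higher with TMM (0.18), with DESeq2 (0.20) and in that trimmed loop (0.11).

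The D segments can be read in each of 3 frames. TRBD1 encodes glutamine between glycines in its frame 2, where TRBD2 encodes leucine, and TRBD2 encodes tryptophan in its frame 3, where TRBD1 encodes arginine. In long loops 58.7% ± 1.36 of junction leucines and 87.7% ± 0.451 of junction tryptophans had the middle base of their codon within TRBD2 bases, and 66.1% ± 1.37 of junction glutamines within TRBD1 bases (SD, n = 4). In comparison loops these shares were 47.3%, 75.3% and 73.5%. Of junction glycines, 68.4% ± 1.03 lay within TRBD2 bases in long loops and 42.4% ± 1.22 in the comparison (SD, n = 4).

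With the junction defined instead as the loop without its first 4 and last 4 residues, the log2 ratio of leucine was 0.097 and that of glutamine -0.051, and glutamine no longer passed (adjusted p = 0.092). The order changed with it: among residues that passed, tryptophan was then highest (0.38), with glycine (0.19), alanine (0.16) and proline above leucine, and tyrosine (-0.47) and histidine (-0.43) were lowest. Weighted by counts, 0 residues passed in edgeR, with 3 at an unadjusted p below 0.05.

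**Figure D4:**
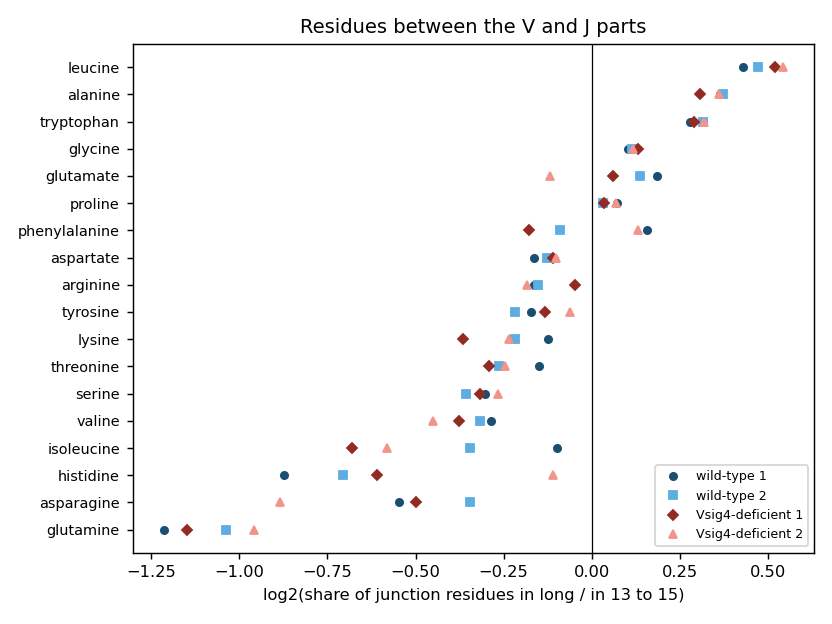
Log2 ratio of each residue's share of junction residues in long loops to its share in loops of 13 to 15 residues (x axis), 1 point per library, for residues with at least 100 occurrences in long loops. Leucine, alanine, tryptophan and glycine lie above 0 and glutamine near -1 in all libraries.

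Few long clonotypes recurred between libraries. The 4 tables held 6254 distinct long amino acid clonotypes (the CDR3 residues with the V and J segment), of which 5740 were found in 1 library, 467 in 2, 40 in 3 and 7 in all 4. In each library, 17.8%, 12.8%, 17.2% and 16.7% of long amino acid clonotypes also occurred in another, against 31.2%, 26.2%, 32.5% and 29.3% of those of 13 to 15 residues. The libraries' ranges did not overlap. On the nucleotide level the gap was smaller, at 14.6% ± 2.24 and 18.3% ± 2.18 (SD, n = 4). Long loops had 1.02 nucleotide sequences per amino acid clonotype and comparison loops 1.16.

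Pairs of libraries of the same genotype had more long clonotypes in common than pairs across genotypes. Wild-type 1 and 2 had 151 long amino acid clonotypes in common, 11.3% and 7.38% of their long clonotypes. Vsig4-deficient 1 and 2 had 197 in common, 14.2% and 9.60%. The 4 pairs across genotypes had 33 to 101 in common. Loops of 13 to 15 residues had 6471 and 7075 in common within and 3192 to 6787 across genotypes, so there the wild-type pair lay below 1 pair across genotypes. That pair joined wild-type 2 and Vsig4-deficient 2, the libraries with the most such clonotypes (48521 and 46749). On the nucleotide level, loops of 13 to 15 residues also had more in common within genotypes (4206 and 5048) than across (1305 to 3508). Whether libraries of a genotype were handled together is not given in the labels, and its part was not tested. Long loops found in 2 or more libraries carried 4.08 ± 0.162 inserted bases and those found in 1 library 4.75 ± 0.0228 (SD, n = 4). In loops of 13 to 15 residues these values were 2.48 ± 0.0534 and 3.56 ± 0.0279 (SD, n = 4).

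Some of the long amino acid clonotypes found in all 4 libraries are printed because they show how differently such loops can be built. On the nucleotide level, 6 long clonotypes were found in all 4. Whether these sequences arose anew in each library or were carried over between libraries was not tested. The bases assigned to the D segment are in capitals.
TRBV1 with TRBJ2-5: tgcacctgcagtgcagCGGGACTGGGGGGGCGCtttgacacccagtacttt
TRBV13-1 with TRBJ2-1: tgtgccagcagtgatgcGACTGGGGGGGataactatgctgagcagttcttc
TRBV1 with TRBJ1-4: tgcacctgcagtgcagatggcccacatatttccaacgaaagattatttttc

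The TRBV1 and TRBJ2-5 clonotype carries 17 D bases and had 32 and 25 counts in wild-type libraries 1 and 2, and 34 and 616 in Vsig4-deficient libraries 1 and 2. The TRBV13-1 and TRBJ2-1 clonotype has no inserted base and was encoded by 4 nucleotide sequences, with 44, 4, 12 and 9 counts. The most abundant of these sequences, found in 1 library, is the one printed. The TRBV1 and TRBJ1-4 clonotype has no D segment and 9 inserted bases, with 5, 2, 12 and 1 counts from a single nucleotide sequence. Of the 5 with the highest mean share, the other two were the largest long clonotypes of Vsig4-deficient 2 and wild-type 2, printed above, whose counts in the other libraries were between 1 and 70.

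Clone sizes of long and comparison loops were close in their bulk. The median long clonotype had 6, 5, 5 and 3 counts and the median comparison clonotype 6, 6, 5 and 3. Clonotypes with 1 count made up 23.0%, 19.0%, 21.6% and 32.3% of long and 21.5%, 17.8%, 20.99% and 33.3% of comparison clonotypes. The difference was positive in 3 of 4 libraries, with a mean of 0.581 percentage points and a two-sided exact sign-flip p = 0.375. Among rows with the highest base quality only, the mean difference was -0.0179 percentage points. CDR3 quality below the highest score was found in 3.04%, 2.85%, 4.15% and 4.14% of long and in 2.06%, 2.11%, 2.72% and 3.31% of comparison clonotypes.

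The counts of large long clonotypes depended on the size limit. Above 0.1% of in-frame counts there were 0 long clonotypes in either wild-type library and 2 and 5 in Vsig4-deficient 1 and 2, against 18, 14, 45 and 42 comparison clonotypes. Above 0.01% there were 25 and 4 in wild-type 1 and 2, and 14 and 23 in Vsig4-deficient 1 and 2, and the genotypes overlapped. The 100 largest clonotypes of each library held 0, 1, 2 and 5 long ones. In Vsig4-deficient 2 the 3 largest had 47928 counts (TRBV13-2 with TRBJ2-5, 3.90% of in-frame counts and rank 2 of all clonotypes), 17125 counts (TRBV1 with TRBJ2-2, 1.39%) and 4268 counts (TRBV4 with TRBJ2-5, 0.348%). All 3 have 17 residues. The largest also occurred with 70 counts in Vsig4-deficient 1 and with 2 and 1 counts in the wild-type libraries.

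The other libraries had far smaller ones. In Vsig4-deficient 1 the 3 largest had 1269, 1210 and 641 counts and all used TRBV1. In wild-type 1 they had 220, 207 and 136 counts, and in wild-type 2 743, 133 and 106. The longest clonotypes with at least 10 counts had 20, 20, 20 and 19 residues in the order of the libraries above, with 70, 29, 30 and 80 counts.

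By counts, long loops therefore differed between libraries in a way they did not by clonotypes. They took 2.21% and 2.41% of in-frame counts in wild-type 1 and 2 and 1.92% and 7.56% in Vsig4-deficient 1 and 2. The means were 2.31% ± 0.141 and 4.74% ± 3.99 (SD, n = 2). The Vsig4-deficient libraries lay on both sides of the wild-type libraries, and the two-sided exact permutation p was 1.0. The largest long clonotype held 51.6% of the long counts of Vsig4-deficient 2, and its 3 largest held 74.7%. Without the 3 largest long clonotypes of each library, a setting added after seeing the data, the shares were 2.14%, 2.29%, 1.60% and 2.03%, and the difference between the genotypes turned from 2.43 to -0.404 percentage points. It was -0.387 without Vsig4-deficient library 2.

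The share of clonotypes was nearly constant. The Vsig4-deficient libraries lay at 2.96% ± 0.00720 and the wild-type libraries at 2.82% ± 0.0210 (SD, n = 2), a difference of 0.144 percentage points with no overlap between the genotypes. The two-sided exact permutation p was 0.33, the smallest that 2 against 2 libraries allow. The 95% Wilson intervals of the single libraries, which cover counting error only, ran from 2.69% to 2.99% and 2.69% to 2.93% in wild-type and from 2.82% to 3.13% and 2.84% to 3.09% in Vsig4-deficient libraries, and they overlap. At 18 or more residues the shares were 0.515% and 0.506% against 0.561% and 0.478%, a difference of 0.00921 percentage points, and the genotypes overlapped.

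**Figure D5:**
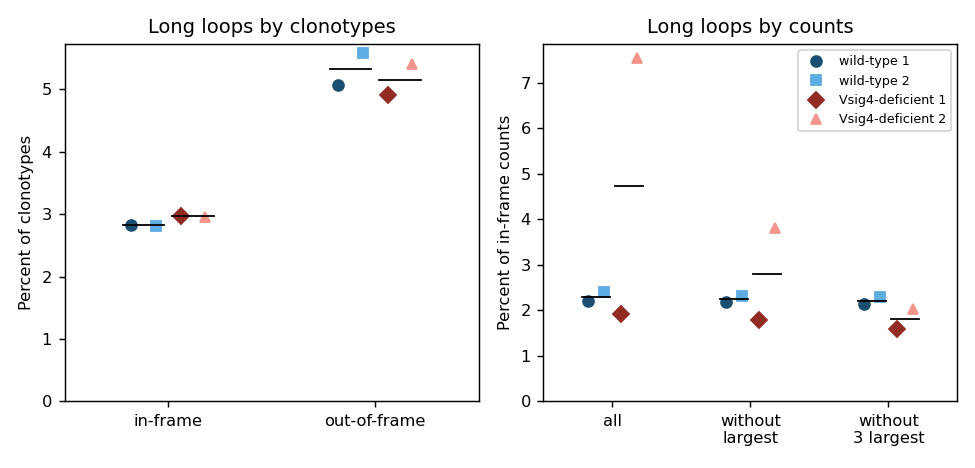
Share of long loops in each library by clonotypes (left, in-frame and out-of-frame) and by in-frame counts (right, with all long clonotypes, without the largest and without the 3 largest of each library); black lines are the means of the 2 libraries of a genotype. By clonotypes the in-frame shares lie between 2.80% and 2.97%; by counts Vsig4-deficient 2 stands at 7.56% and falls to 2.03% without its 3 largest long clonotypes.

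Between genotypes, inserted bases and V and J use of long loops were tested. Long loops carried 4.63 and 4.64 inserted bases in wild-type 1 and 2 and 4.66 and 4.65 in Vsig4-deficient 1 and 2. The genotypes differed by 0.0167 bases (two-sided exact permutation p = 0.33, the smallest possible), and the libraries did not overlap. Other measures of the loop parts were not tested between genotypes. Untrimmed J ends did not overlap, at 54.7% and 53.6% in wild-type 1 and 2, against 51.6% and 52.3% in Vsig4-deficient 1 and 2. Nor did V bases (15.11 and 15.10 against 15.14 and 15.16), while D bases overlapped (10.65 and 10.75 against 10.71 and 10.58). For any such measure, 2 against 2 libraries separate with a probability of 0.33 where genotype plays no part. Of 19 TRBV segments tested among long clonotypes, 0 (0%) were called by edgeR, 0 at an unadjusted p below 0.05 and 0 by DESeq2, and the smallest adjusted p was 0.76. Without Vsig4-deficient library 1, 5 segments were called, among them TRBV2 with a log2 ratio of -0.98 (named after its values were seen). At 18 or more residues, 3 were called: TRBV1 (log2 ratio 0.77), TRBV13-2 (0.55) and TRBV19 (-2.09).

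Of 12 TRBJ segments, 0 (0%) were called by edgeR and 0 by DESeq2. TRBJ2-3 alone had an unadjusted p below 0.05, with shares of long clonotypes of 17.2% and 17.5% in wild-type 1 and 2, against 16.3% and 13.7% in Vsig4-deficient 1 and 2, and a log2 ratio of -0.23 ± 0.0935 (SE; edgeR adjusted p = 0.26). At 18 or more residues 1 was called, TRBJ1-6 (log2 ratio 1.39). The log2 ratios of the 5 most used TRBV segments were 0.18 for TRBV13-2, 0.11 for TRBV1, -0.16 for TRBV3, 0.29 for TRBV13-1 and -0.11 for TRBV13-3, all with an adjusted p of 0.76. Those of the other most used TRBJ segments lay between -0.072 (TRBJ2-4) and 0.10 (TRBJ2-1).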

How the data were processed

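Bulk TRB sequencing of CD8+ T cells gave 1 clonotype table per library (2 wild-type, 2 Vsig4-deficient, grouped by the labels). The deposited tables give, per the file headers, a clone count, a clone fraction and a quality score (that of the worst CDR3 base) for each sequence, with positions of V, D and J ends. Deposited counts are whole and not normalized, the fraction was not used further, and the score served one filter. The build is mm10 per the submitters' processing notes; no assembling program can be named (not given in the sources used here).

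Members and lists were chosen with earlier results of these data known. Shares of segments and junction residues were tested with edgeR 4.0.16 (quasi-likelihood, offsets from column totals, at least 10 clonotypes per segment, library as a block for long against 13 to 15 residues, Benjamini-Hochberg adjustment, threshold 0.05) in R 4.3.3, with DESeq2 1.42.0 as an alternative. The fits were also run on simulated data in which few features changed. For long against 13 to 15 residues most features were called, so that run does not bear on these calls. Single values were compared by exact permutation and sign-flip tests, computed with NumPy 2.4.6. Wilson intervals at 95% and limits of 3 counts cover counting error only, and PCR copies are not independent molecules. Named segments and residues were the 5 highest and 5 lowest past the threshold and the 5 most used; named clonotypes were the 3 largest and the longest of each library and the 5 of highest mean share found in all. Segment names matched RefSeq for all 26 TRBV and 12 TRBJ segments. Same-numbered libraries did not deviate together.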

Additional observations from a re-analysis of the deposited data

How the results depend on the processing

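Each choice was changed alone: clonotypes with 1 count, base quality, joining of near-identical sequences, copies between libraries, an 18-residue limit, the comparison lengths, weighting, normalization and each library. Of 131 alternative values of the 10 main results, 118 kept their direction and, for counts of calls, stayed within 1.5 times. The exceptions follow, and the cause was not tested. With 18 residues or more, the difference in the share of counts was -0.0596 percentage points and that in inserted bases -0.0318, 3 TRBV and 1 TRBJ segments were called between genotypes and 9 residues against 13 to 15 residues. Weighted by counts, 1 TRBV segment, 4 TRBJ segments and 0 residues were called. With that weighting the genotype difference in inserted bases kept its direction, so it is no exception, but was 1.05 against 0.0167. In Vsig4-deficient 2, 3 clonotypes held 74.7% of the long counts. The share of counts gave -0.404 without the 3 largest clonotypes, the window of 51 to 75 bases gave 0.321 percentage points, and the highest quality gave -0.0179. Leaving out each library in turn, the difference in the share of counts ran from -0.387 to 5.25 and TRBV calls between genotypes from 0 to 5.

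Of 654 values of single segments and residues, 27 changed sign. Against 13 to 15 residues, TRBV3 gave -0.11 at 18 residues or more and -0.66 weighted by counts, and TRBV13-1 -0.035 without single counts, -0.0064 at the highest quality, -0.046 against all other lengths and -0.86 weighted by counts; leaving out libraries gave -0.017 to 0.078 and -0.040 to 0.068. Weighted by counts, TRBJ2-1 gave -0.10, TRBJ1-6 -0.27 and tryptophan -0.0014. TRBJ2-5 gave -0.078 with TMM and arginine 0.0089 with DESeq2. Between genotypes, at 18 residues or more, TRBV13-1 gave -0.47, TRBV13-3 0.21 and TRBJ2-5 -0.10; weighted by counts, TRBV13-1 gave -0.62, TRBJ2-1 -0.70 and TRBJ2-2 0.51. Leaving out libraries gave -0.046 to 0.26 for TRBV1, -0.37 to 0.069 for TRBV13-3, -0.15 to 0.036 for TRBJ2-4, -0.010 to 0.23 for TRBJ2-5 and -0.14 to 0.045 for TRBJ2-2.

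With the replicate number as a block, 0 TRBV and 0 TRBJ segments were called between genotypes, as without it, and the genotype differences in the shares of clonotypes and counts and in inserted bases stayed at 0.144, 2.43 and 0.0167. Same-numbered libraries had a correlation of deviations of -0.58, and a crossed replicate block, added after seeing the data, gave 0 and 0 calls. With 2 libraries per genotype no single value can pass a threshold of 0.05, and shares of rare segments rest on few long clonotypes.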
